A study of Mus musculus with 24 samples.

Results

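Mitochondrial ribosomal protein genes are here the nuclear genes whose symbols begin with Mrpl (named for the large subunit) or Mrps (for the small) and a number. Of the 24079 genes counted, 77 carried such a symbol, 48 with Mrpl and 29 with Mrps. Large and small subunit are used here by this letter alone, and the place of each protein in the ribosome was not checked. The rule for taking a gene used the symbol alone and no measured value, but it was set with earlier results of these data known. The RNA came from the nucleus accumbens (Acb, the ventral striatum) and the dorsal striatum (DS) of rpS6 knockin mice, named here rpS6 P-/- or KI, and of wild-type littermates. In the knockin line every phosphorylatable serine of ribosomal protein S6 is replaced by alanine in all cells of the body, on a mixed C57Bl/6, Sv129 and ICR background. From each lysate, RNA was taken directly (lysate) and from the heavy polysomal fractions of a sucrose gradient (heavy, mRNA that carries several ribosomes), which gave 8 groups of 3 libraries over region, genotype and fraction. Male and female mice were used and their ages are not given in the labels. Each replicate pooled the tissue of several mice, so the tests measure the spread between pools. The 5 serine substitutions cannot be seen in counts per gene, so the genotype labels could not be checked by the level of a gene.

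Mitochondria keep their own ribosome, the mitoribosome, which makes the handful of respiratory chain proteins encoded by mitochondrial DNA. Its RNA is transcribed in the mitochondrion, whereas all its proteins are encoded in the nucleus, translated on cytosolic ribosomes and imported, so these mRNAs are clients of the ribosome that contains S6. Some of the proteins descend from bacterial ribosomal proteins (47 of the 77 genes) and the others were added in mitochondria (30 genes). In striatum, as in brain at large, respiration supplies most ATP of neurons, through complexes that contain the proteins the mitoribosome makes.

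The 77 genes lie on 17 chromosomes and encode small proteins: the median coding length was 573 bases (195 to 1326) and the median transcript length 1065 bases (412 to 6712), against medians of 1203 and 2378 bases over all genes. Mrpl46 and Mrps11 are neighbours on chromosome 7, 41 bases apart. Exons of Mrps6 overlap those of Slc5a3 on the same strand, so reads of Mrps6 are uncertain. A RefSeq table (GRCm38.p6) gave 250 bases upstream of the annotated start for 68 of the 77 genes. The motif CCGGAA, searched on both strands as the core to which ETS factors such as GABP (NRF2) bind, was found in 25 of these windows (36.8%), against 12.2% of the windows of all 27025 genes and 38.2% of those of cytosolic ribosomal protein genes. GCGCATG, a core of the NRF1 site, stood in 11.8% of the windows against 3.32% of all, ATGGCG (YY1) in 5.88% against 5.77%, TGACGTCA (CRE) in 2.94% against 1.62% and TATAAA in 5.88% against 13%. The median GC content was 58.4% in the windows of these genes, 57.2% in those of cytosolic ribosomal protein genes and 52.0% in those of all genes. Its part in the shares of matches was not tested. In 0 of the 68 windows did matches of different motifs share letters. Below are 150 bases upstream of the start for 5 genes named for large changes in the comparisons. Only windows outside the annotated gene that hold a CCGGAA match, which is in capitals, were taken. They are printed 5′ to 3′ on the strand of the gene, ending at the base before its annotated start.
Mrpl33, chr5:31613801-31613950, plus strand: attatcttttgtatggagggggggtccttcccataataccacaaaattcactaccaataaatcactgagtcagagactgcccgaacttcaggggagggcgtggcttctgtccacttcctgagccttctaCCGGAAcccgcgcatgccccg
Mrps18c, chr5:100798609-100798758, plus strand: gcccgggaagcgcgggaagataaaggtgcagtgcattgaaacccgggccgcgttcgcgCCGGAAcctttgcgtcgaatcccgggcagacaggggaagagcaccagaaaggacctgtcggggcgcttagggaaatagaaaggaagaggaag
Mrpl34, chr8:71464776-71464925, plus strand: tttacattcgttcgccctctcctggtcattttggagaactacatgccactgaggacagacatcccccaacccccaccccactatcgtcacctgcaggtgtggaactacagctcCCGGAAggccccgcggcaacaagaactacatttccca
Mrps33, chr6:39810937-39811086, minus strand: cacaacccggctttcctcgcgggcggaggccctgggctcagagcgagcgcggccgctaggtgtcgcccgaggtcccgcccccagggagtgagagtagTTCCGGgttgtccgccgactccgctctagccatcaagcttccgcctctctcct
Mrpl39, chr16:84735245-84735394, minus strand: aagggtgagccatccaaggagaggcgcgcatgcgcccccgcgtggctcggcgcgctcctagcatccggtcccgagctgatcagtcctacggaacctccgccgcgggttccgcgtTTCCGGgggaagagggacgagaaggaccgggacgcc
The match ends 15 bases before the start in Mrpl33 and 86 bases before it in Mrps18c, so its place is not shared. A match describes letters in the window and was not tested as a binding site.

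All 77 genes were detected, with the reads of Mrps6 uncertain as given above. Per the study's methods, E. coli sequences in the libraries led to several sequencing runs. Assigned reads ranged from 9280589 to 34703044 per library, 0.197 to 0.497% of them fell on these genes, and a gene had between 143 and 3063 reads on average (median 681). Markers of medium spiny neurons, the principal striatal cells, summed to 3312 to 6529 CPM (reads scaled to library size, with library sizes normalised by TMM) in every library. Markers of cortical excitatory neurons summed to 692 to 925 CPM in DS and to 61.2 to 198 CPM in Acb, and astrocyte markers to 267 to 504 CPM in DS and 497 to 832 CPM in Acb. None of the marker genes present in the table was at 0 in every library. In bulk tissue, fewer cells of a type and less RNA per cell cannot be told apart.

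Levels between genes were compared per kb of transcript in the 6 wild-type lysate libraries. The 77 genes spanned 33.7-fold, with a median of 22.7 CPM per kb, and 5 of them stood below the median of 9.34 CPM per kb of the 11736 genes with at least 50 reads on average. Mrps21, the homologue of bacterial S21, was highest with 137 ± 24 CPM per kb (SD, n = 6). Mrps33, a mitochondria-specific small subunit protein, had 91.3 ± 16.9 CPM per kb, and Mrpl42, a mitochondria-specific large subunit protein, 88.8 ± 10.8 CPM per kb. These latter values differed by less than the spread between libraries. At the other end stood Mrpl17 with 4.08 ± 1.11, Mrpl1, a protein of the L1 stalk, with 5.57 ± 1.64 and Mrpl19 with 6.61 ± 0.910 CPM per kb. The annotated transcripts of Mrpl17, Mrpl1 and Mrpl19 have 6712, 3431 and 4991 bases for coding lengths of 528, 1008 and 876. Their values per kb, and with them the 33.7-fold span, depend on that annotation. Per kb of annotated transcript, mRNA levels for proteins of a single particle thus differed widely.

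**Figure D1:**
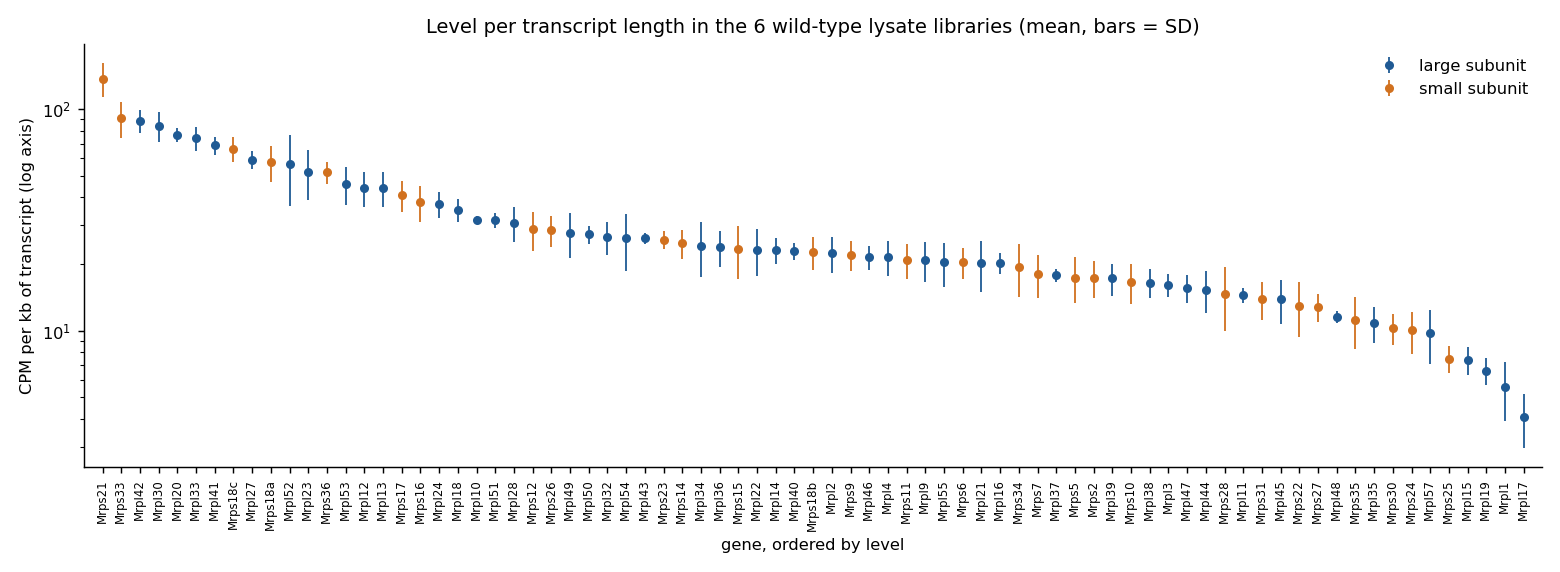
Level per transcript length (CPM per kb, log axis) of each of the 77 genes in the 6 wild-type lysate libraries, ordered from high to low, with points for means and bars for SD. Large subunit genes (blue) and small subunit genes (orange) are mixed along the order, from 137 CPM per kb for Mrps21 to 4.08 for Mrpl17.

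The first comparison asked how these mRNAs are distributed between the heavy polysomes and the lysate. Both genotypes of a region were in 1 fit, which did not pair lysate and heavy libraries of the same number. In DS, 68 of the 77 genes were higher in the heavy fraction and 0 were lower (edgeR quasi-likelihood test, adjusted p under 0.05 after Benjamini-Hochberg), where 19.5% of all genes tested were higher and 17.5% lower. At an unadjusted p under 0.05, and with DESeq2, 0 were lower as well. The median log2 fold change of heavy over lysate was 0.84, against 0.03 over all genes. In Acb, 50 genes were higher and 3 lower, against 15.6 and 14.3% of all genes, with a median of 0.50 against 0.04 over all genes. Relative to the lysate, mRNAs of the mitoribosome were thus more abundant on heavy polysomes in both regions.

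Mrpl41, a mitochondria-specific protein of the large subunit, had the largest increase in both regions. Its lysate libraries in DS held 50.4, 61.3 and 53.6 CPM (wild type) and 55.7, 48.4 and 61.7 CPM (rpS6 P-/-), and its heavy libraries 196, 120 and 124 CPM and 106, 136 and 154 CPM. Every heavy library lay above every lysate, with a log2 fold change of 1.33 (SE 0.12, adjusted p = 9.49e-13, edgeR). In Acb the lysates held 47.1 to 64.6 CPM and the heavy libraries 92.8 to 151 CPM, again without overlap (log2 fold change 1.14, SE 0.13, adjusted p = 3.4e-08, edgeR). Mrps33 followed in DS, with 73.6 to 114 CPM in the lysates and 191 to 326 CPM in the heavy libraries (log2 fold change 1.31, SE 0.12, adjusted p = 1.54e-12, edgeR). Mrpl14, a core protein of the large subunit at the face where it joins the small one, rose by 1.25 in DS (SE 0.16, adjusted p = 6.27e-09, edgeR). In Acb the next were Mrpl55 with 1.06 (SE 0.18, adjusted p = 2.62e-05) and Mrpl39 with 1.01 (SE 0.15, adjusted p = 4.88e-06), both mitochondria-specific proteins of the large subunit.

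Core and stalk proteins of the large subunit, fixed by their role, were among the genes that rose. Mrpl2 (0.70 in Acb and 1.04 in DS) and Mrpl3 (0.48 and 0.93), from the core of the large subunit around the peptidyl transferase centre, rose in both regions, as did Mrpl4 (0.49 and 0.79). At the base of the stalk that recruits translation factors, Mrpl10 (0.50 and 0.81) and Mrpl11 (0.63 and 1.12) also rose in both. Mrpl12, which forms the stalk itself, rose in DS (0.92, adjusted p = 8.49e-07, edgeR) but had a log2 fold change of 0.09 in Acb (adjusted p = 0.714, edgeR). Mrps12, at the decoding centre, had the same contrast, with 1.17 in DS (adjusted p = 2.06e-08, edgeR) and 0.20 in Acb (adjusted p = 0.422, edgeR).

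The 3 genes that fell in Acb were Mrps24, Mrpl33 and Mrps21. Mrps24, the homologue of bacterial S3, lay between 6.61 and 10.9 CPM in the Acb lysates and between 2.69 and 5.24 CPM in the heavy libraries, without overlap. Its log2 fold change was -1.17 (SE 0.25, adjusted p = 0.000404, edgeR), whereas in DS it was 0.19 (adjusted p = 0.645, edgeR). Mrpl33, one of the smallest proteins of the large subunit and a gene the study picked for qRT-PCR, fell by 0.77 on the log2 scale (SE 0.23, adjusted p = 0.0103, edgeR), and Mrps21 fell by 0.63 (SE 0.20, adjusted p = 0.0169, edgeR). Both calls were lost in the wild-type Acb libraries alone, where the log2 fold changes were -0.25 and -0.12. The call of Mrps21 was lost by leaving out KI heavy replicate 2 (-0.53), KI lysate replicate 1 (-0.54) or KI lysate replicate 3 (-0.55). In DS the same genes were higher in the heavy fraction, Mrpl33 by 0.44 (adjusted p = 0.049, edgeR) and Mrps21 by 0.33 (adjusted p = 0.0493, edgeR).

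Of the genes higher in the heavy fraction, 48 were called in both regions, which is 96% of the calls in Acb and 70.6% of those in DS. The share of all genes called in both regions was not counted, so this overlap is a description only. Another 20 were called in DS alone, 2 in Acb alone (Mrpl19 and Mrps31, named after their values were seen) and 7 in neither (Mrpl18, Mrpl52, Mrpl54, Mrpl57, Mrps24, Mrps27 and Mrps5, likewise). The log2 fold change was larger in DS than in Acb for 66 of the 77 genes. The difference between regions in the effect of fraction was not itself tested. By genotype, 48 genes were higher in the wild-type Acb libraries alone (13% of all genes) and 18 in the rpS6 P-/- ones alone (7.7% of all), with medians of 0.64 and 0.30. In DS, 57 were higher in wild type (12.8% of all) and 63 in rpS6 P-/- (13.8% of all), with medians of 0.81 and 0.76.

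The rest of the mitochondrial translation machinery was less uniform. The part of transcript length in this contrast was not tested. Of 74 genes for the remaining mitoribosomal proteins, translation factors, tRNA ligases, assembly factors and mitochondrial RNA metabolism, 22 rose and 4 fell in Acb, and 26 rose and 8 fell in DS, with medians of 0.35 and 0.24. Gfm1, the mitochondrial elongation factor G, fell by 0.77 in Acb and by 1.26 in DS on the log2 scale (adjusted p = 0.000509 and 3.76e-08, edgeR). Lrpprc, which stabilises mitochondrial mRNAs, fell by 0.85 and by 0.71, whereas Tfam, which packages and transcribes mitochondrial DNA, rose by 0.64 and 0.87. Cytosolic ribosomal protein genes, whose mRNAs carry a 5′ terminal oligopyrimidine tract, went the other way in Acb, with 0 of 74 higher (1 at an unadjusted p under 0.05, 0 with DESeq2) and 59 lower (median -0.68). In DS 21 of them were higher and 13 lower (median 0.11). Nuclear genes for complex I subunits, which like the 77 genes encode small imported proteins, had 19 of 36 higher and 6 lower in Acb (median 0.35) and 28 higher and 1 lower in DS (median 0.92).

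**Figure D2:**
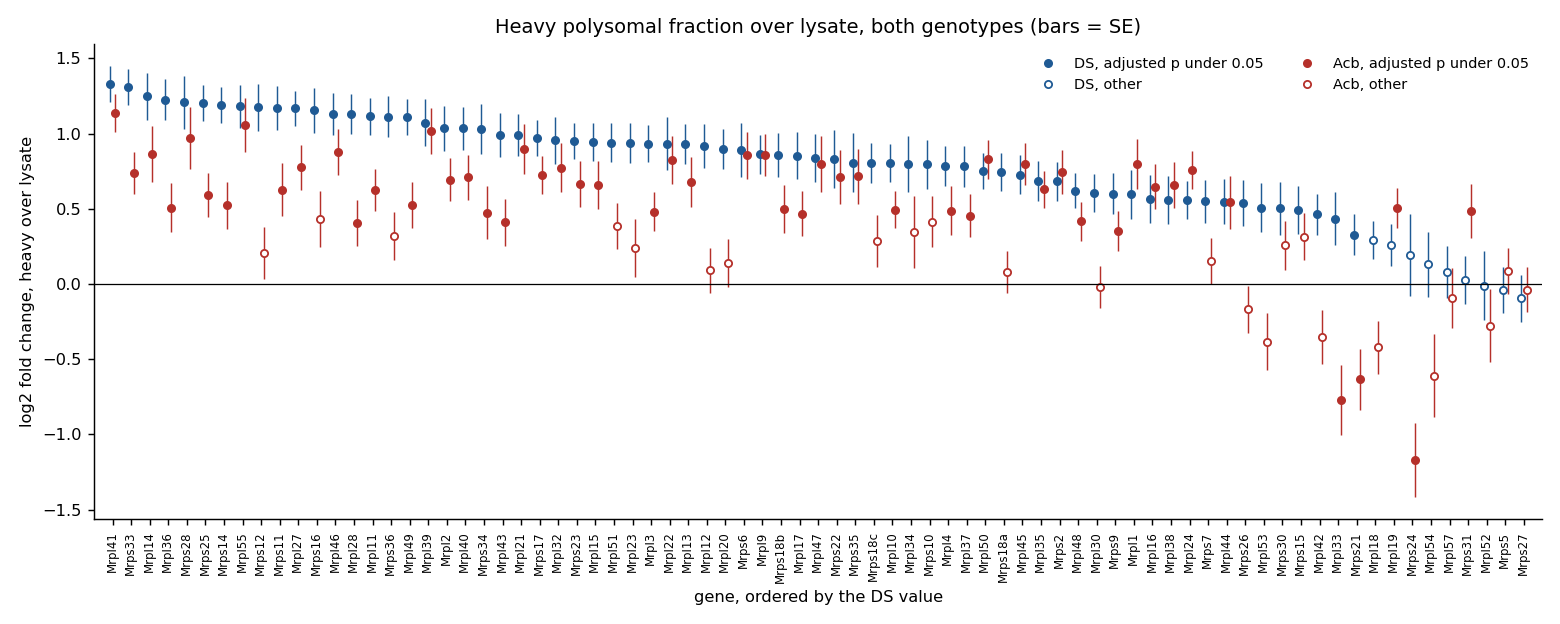
Log2 fold change of the heavy polysomal fraction over the lysate for each of the 77 genes in Acb and DS, both genotypes together, ordered by the DS value, with bars for SE and filled points for an adjusted p under 0.05. Most points lie above 0 in both regions, with medians of 0.50 in Acb and 0.84 in DS, and Mrps24, Mrpl33 and Mrps21 are the filled points below 0 in Acb.

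Transcript length moved with the fraction in these libraries. Over all genes tested, the Spearman correlation between coding length and the log2 fold change of heavy over lysate was -0.38 in Acb (15466 genes) and -0.55 in DS (15290 genes), and among the 77 genes it was 0.21 and -0.26, given as descriptions since genes share libraries. With a trend on transcript length removed from each library, 30 genes were higher and 8 lower in Acb (12.8% of all genes higher and 14.1% lower), with a median of 0.28. In DS 39 were higher (17.4% of all genes) and 4 lower (13.2% of all genes; Mrpl52, Mrpl54, Mrps5 and Mrps21), with a median of 0.36. In both regions 24 genes were higher, again without a share of all genes to set beside it. Mrpl41 kept its increase there, with 0.94 in Acb and 0.67 in DS (adjusted p = 1.52e-07 and 1.9e-06, edgeR). Mrps24 remained lower in Acb (-1.44, adjusted p = 2.84e-05, edgeR). Bc1, a short neuronal noncoding RNA, took 15.2 to 26.1% of the reads of lysates and 0.897 to 3.85% of those of heavy libraries. Its part in the result was not tested.

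The second comparison set rpS6 P-/- against wild type within the heavy fraction of Acb. No gene passed the adjusted threshold there, among the 77 or among all genes tested (0% of 16227 genes), and the lowest adjusted p of the 77 was 0.0983. Even so, 64 of the 77 log2 fold changes were negative, with a median of -0.40 against -0.01 over all genes. At an unadjusted p under 0.05, 37 genes were lower and 4 higher, where 11.5% of all genes were lower and 10.2% higher. In 37 genes every rpS6 P-/- library lay below every wild-type one, against 15.6% of the genes for which this was counted. DESeq2's Wald test, which gave no adjusted p for 4 of the 77, called 20 lower (6.84% of all genes to which it gave one) and 1 higher (Mrps5) at an adjusted p under 0.05.

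The values of Mrpl33 were 46.1, 24.2 and 22.7 CPM in the wild-type heavy libraries of Acb and 18.6, 14.7 and 6.59 CPM in the rpS6 P-/- ones. The groups did not overlap, and the log2 fold change was -1.20 (SE 0.32, adjusted p = 0.106, edgeR). The study reported Mrpl33 as lower in these mutant fractions with DESeq2 and by qRT-PCR, and as unchanged by qRT-PCR in total lysates. Mrps21 had 87.5, 62.2 and 45.9 CPM in wild type and 50.3, 27.8 and 17.6 CPM in rpS6 P-/-, where the highest mutant library lay above the lowest wild-type one (-1.0, SE 0.30, adjusted p = 0.111, edgeR). Mrpl42 had 85.1, 68.1 and 56.8 CPM against 38.0, 42.8 and 23.5 CPM (-0.97, SE 0.22, adjusted p = 0.0983, edgeR). In Mrps36, which is also known as a component of the 2-oxoglutarate dehydrogenase complex, 69.3, 59.5 and 57.0 CPM stood against 31.9, 36.5 and 24.2 CPM. Its log2 fold change was -0.97 (SE 0.18, adjusted p = 0.0983, edgeR), and as for Mrpl42 the groups were well apart. Mrps18c, 1 of 3 homologues of bacterial S18, had 60.3, 41.2 and 57.9 CPM in wild type and 28.5, 37.6 and 17.8 CPM in rpS6 P-/- (-0.89, SE 0.23, adjusted p = 0.104, edgeR). In each of these 5 genes the lowest value of all 6 libraries was that of rpS6 P-/- replicate 3.

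These genes lie apart in the genome (mm10/GRCm38): Mrpl33 at chr5:31613951-31622644, Mrps21 at chr3:95862634-95871514, Mrpl42 at chr10:95480805-95501949, Mrps36 at chr13:100735940-100744659 and Mrps18c at chr5:100798759-100804467.

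A few genes had values in the opposite direction. Mrps5, which sits at the entry of the mRNA channel of the small subunit, had 21.5, 24.7 and 23.1 CPM in wild type and 33.0, 33.0 and 37.0 CPM in rpS6 P-/-, without overlap (0.61, SE 0.17, adjusted p = 0.106, edgeR). Mrps27, a pentatricopeptide repeat protein of the small subunit, had 17.4, 25.2 and 20.0 CPM against 28.4, 25.5 and 32.4 CPM (0.51, SE 0.19, adjusted p = 0.157, edgeR). Mrps31 had a log2 fold change of 0.45 (adjusted p = 0.193, edgeR) and Mrpl16, a protein near the tRNA sites of the large subunit, of 0.38 (adjusted p = 0.216, edgeR). All 4 have coding lengths above the median of the 77 genes.

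Among genes fixed by their role, those of the S18 homologues were unlike each other in value: -0.89 for Mrps18c, -0.48 for Mrps18a (adjusted p = 0.176, edgeR) and -0.16 for Mrps18b (adjusted p = 0.645, edgeR). The stalk genes Mrpl10, Mrpl11 and Mrpl12 stood at -0.34, -0.27 and -0.39. In the core of the large subunit, Mrpl2 stood at -0.27, Mrpl3 at 0.07 and Mrpl4 at -0.28. Mrps34, a mitochondria-specific small subunit protein, had 31.9, 32.4 and 30.2 CPM in wild type and 22.7, 20.8 and 16.1 CPM in rpS6 P-/- (-0.63, SE 0.18, adjusted p = 0.11, edgeR). Values close to 0 were those of Mrps2 (0.00) and Mrps22 (-0.06), and Mrps7, Mrps12, Mrpl41, Mrpl44 and Mrpl47 stood at -0.40, -0.32, -0.31, 0.23 and -0.37. None of these passed the adjusted threshold.

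By subunit and by the origin of the protein, medians were close to each other. The median log2 fold change was -0.39 for genes named for the large subunit (40 of 48 negative) and -0.41 for those named for the small one (24 of 29 negative). It was -0.40 both for genes with a bacterial homologue and for mitochondria-specific ones. By coding length they were further apart. All 38 genes with a coding length under the median of the 77 had a negative value, with a median of -0.55 and 28 of them at an unadjusted p under 0.05, where 49.3% of all genes tested with a coding length under the same median were lower at that threshold. Of the 39 longer genes 26 were negative, with a median of -0.19. The Spearman correlation between coding length and the log2 fold change was 0.75 among the 77 genes and 0.40 among 15149 genes, as descriptions over genes that share the same libraries.

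**Figure D3:**
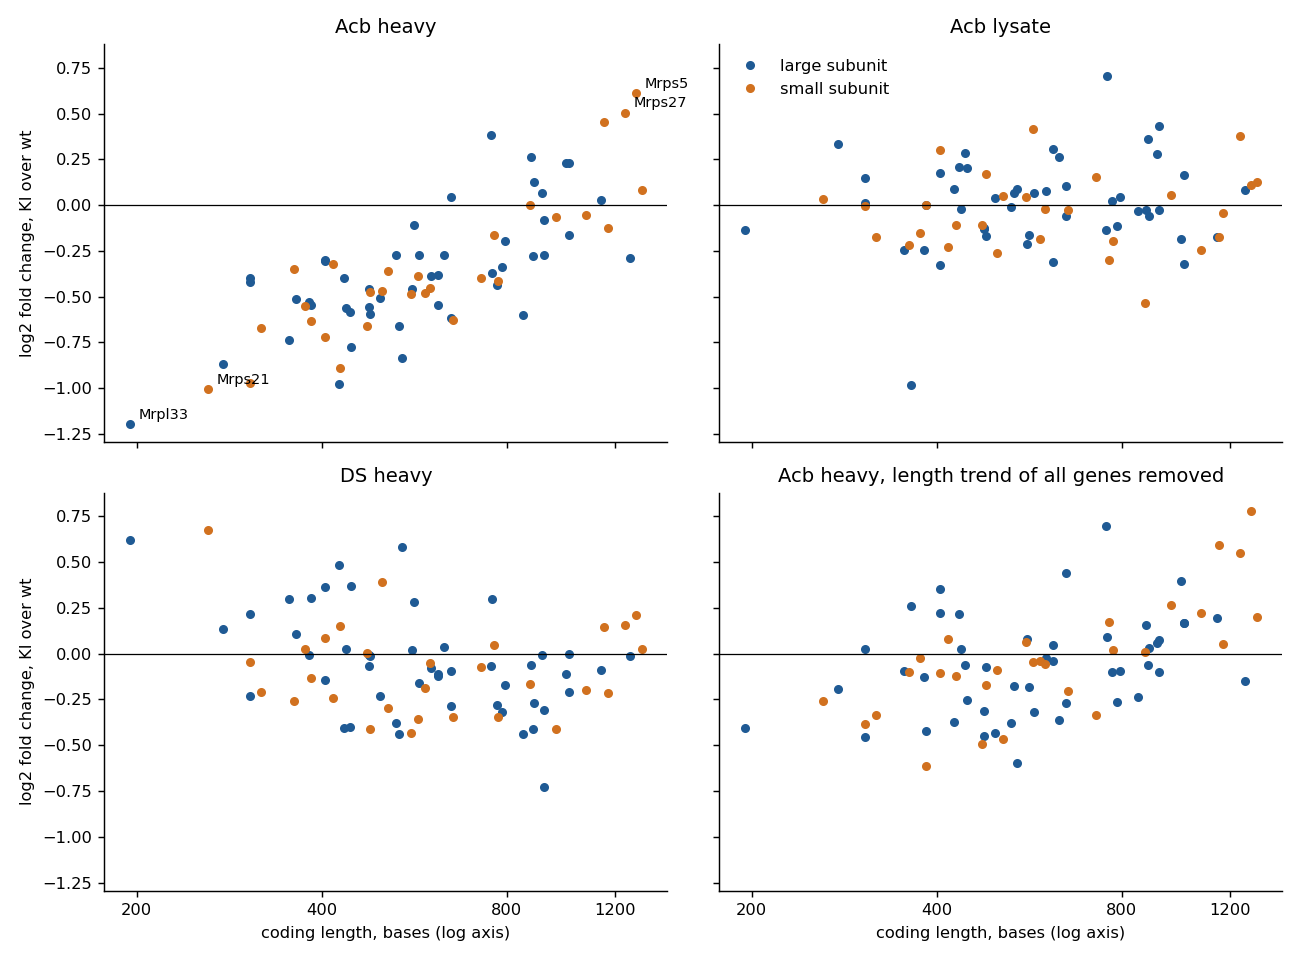
Log2 fold change of rpS6 P-/- (KI) over wild type against coding length (log axis, bases) for the 77 genes, coloured by subunit. The panels hold Acb heavy, Acb lysate, DS heavy, and Acb heavy again with the trend on transcript length removed. In the heavy fraction of Acb without that removal the short genes lie lowest, and all 38 under the median coding length are below 0. The other panels have medians of -0.08 to -0.01.

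When the trend on transcript length was removed from each library, the median of the 77 genes in this comparison became -0.06, with 10 genes lower (9.63% of all genes) and 5 higher (8.96% of all genes; Mrpl16, Mrpl24, Mrps5, Mrps27 and Mrps31) at an unadjusted p under 0.05. Mrpl33 then had a log2 fold change of -0.40, Mrpl42 of -0.37 and Mrps36 of -0.38, whereas Mrps5 stood at 0.78 and Mrpl16 at 0.70 (adjusted p of 0.12 for both, edgeR). In each library, the median level of genes with transcripts under 1000 bases minus that of genes over 4000 bases was taken as a measure of this trend. It was 0.62, 0.37 and 0.40 (log2) in the wild-type heavy libraries of Acb and 0.04, -0.16 and -0.74 in the rpS6 P-/- ones, where replicate 3 was the lowest of all 24 libraries. The median of the 77 genes, as a log2 level against the mean of 24 libraries, moved with it, at 0.46, 0.34 and 0.37 in wild type and 0.15, 0.14 and -0.30 in rpS6 P-/-. Without rpS6 P-/- replicate 3 the median log2 fold change was -0.28, and without rpS6 P-/- replicate 1 it was -0.49. Why short transcripts were lower in these libraries was not tested.

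**Figure D4:**
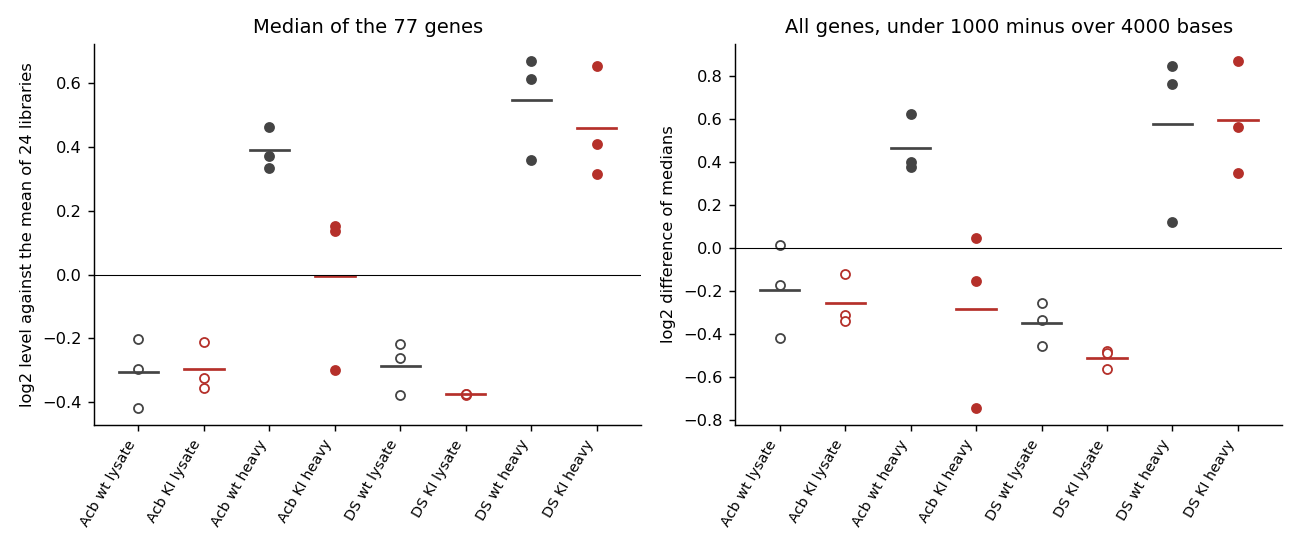
Left, the median log2 level of the 77 genes in each library against the mean of 24 libraries; right, the log2 difference between the medians of all genes under 1000 and over 4000 bases of transcript, with points for libraries and lines for group means. The rpS6 P-/- heavy libraries of Acb lie below the other heavy libraries in the left panel, at 0.15, 0.14 and -0.30, and replicate 3 is lowest in the right panel at -0.74.

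Beside the 77 genes, cytosolic ribosomal protein genes had 66 of 74 negative values (median -0.52, and 0.07 with the length trend removed), and complex I subunits 31 of 36 (median -0.71, and -0.13 with it removed). The 74 further genes of mitochondrial translation had 48 positive values and 26 negative, with a median of 0.14. Among them, 10 of 13 translation factors (median 0.33) and 16 of 20 mitochondrial tRNA ligases (median 0.25) were positive. No median with the length trend removed is given here for these 74 genes. The part of length in their contrast with the 77 was not tested. Slirp, the small partner of Lrpprc, had the lowest value with -1.14 (SE 0.24, adjusted p = 0.0983, edgeR). Chchd1 and Dap3, proteins of the small subunit whose symbols do not begin with Mrp, stood at -0.99 and 0.57 (adjusted p of 0.106 for both, edgeR).

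In Acb lysates the genotypes could not be separated in the 77 genes: 0 were called with edgeR (0.0065% of all genes) and 0 with DESeq2, with a median of -0.01 and 37 positive against 40 negative values. At an unadjusted p under 0.05, 2 genes were lower (1.69% of all genes), Mrpl52 and Mrps2, and 2 higher (1.27% of all genes), Mrpl45 and Mrpl47. Mrpl33 had 32.7, 31.9 and 42.7 CPM in wild type and 26.9, 24.9 and 46.0 CPM in rpS6 P-/-, so the groups overlapped (-0.14, SE 0.22, edgeR). Mrps21 and Mrpl42 stood at 0.03 and 0.09. Mrps2, at -0.53, and Mrpl47, at 0.70, had the values furthest from 0 among the genes fixed by role (unadjusted p of 0.0227 and 0.0182, edgeR).

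In DS, 0 of the 77 genes were called between genotypes in either fraction with edgeR, where 0.044% of all genes were called in the heavy fraction and 0.122% in lysates. DESeq2 called 0 as well, but it gave no adjusted p for 17 of the 77 in the heavy fraction and for 59 of them in lysates. In the heavy fraction the median was -0.08, with 51 negative values, and at an unadjusted p under 0.05 5 genes were lower (2.72% of all genes; Mrpl2, Mrpl4, Mrpl13, Mrpl27 and Mrpl46) and 4 higher (3.7% of all genes; Mrpl18, Mrpl33, Mrpl42 and Mrps21). Mrpl33 had 38.4, 24.4 and 41.3 CPM in wild type and 52.4, 30.4 and 76.2 CPM in rpS6 P-/- (0.62, SE 0.24, adjusted p = 0.707, edgeR). Mrps21 had 67.1, 45.8 and 91.9 CPM against 104, 92.4 and 128 CPM (0.67, SE 0.20, adjusted p = 0.398, edgeR), and here every mutant library lay above every wild-type one. Mrpl2 lay at -0.73 (adjusted p = 0.338, edgeR), with 65.8, 41.4 and 57.9 CPM in wild type and 30.8, 35.6 and 32.5 CPM in rpS6 P-/-. Mrpl33 and Mrps21, short genes named above for low values in the mutant Acb, thus had values of the opposite sign in DS. Neither passed the adjusted threshold, and this does not describe the short genes as a set.

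In DS lysates the median was -0.08, which changed sign with the length trend removed (0.0074), and at an unadjusted p under 0.05 10 genes were lower (4.83% of all genes) and 1 higher (4.24% of all genes), Mrps33. Mrpl12 had the lowest value, with 37.1, 58.4 and 42.8 CPM in wild type and 25.8, 25.2 and 32.8 CPM in rpS6 P-/-, without overlap. Its log2 fold change was -0.74 (SE 0.18, adjusted p = 0.0912, edgeR), while in the heavy fraction of the same region it was -0.08 (adjusted p = 0.985, edgeR).

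**Figure D5:**
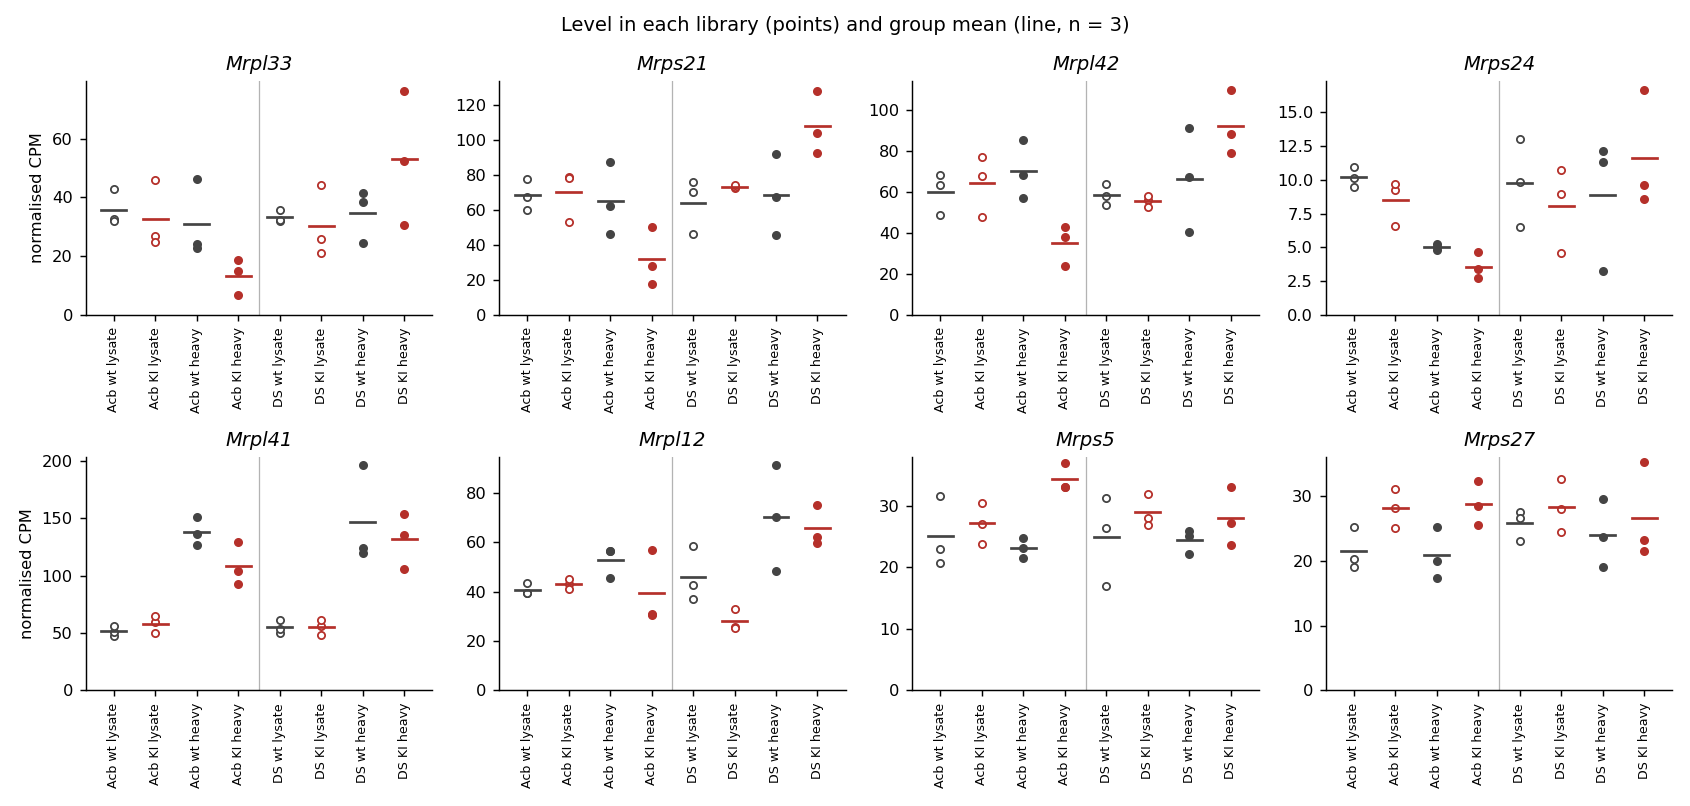
Level in CPM of 8 genes in each of the 24 libraries (points) with the mean of each group (line, n = 3), grouped by region, genotype (wt, wild type; KI, rpS6 P-/-) and fraction. Mrpl33, Mrps21 and Mrpl42 are lowest in the rpS6 P-/- heavy libraries of Acb, Mrpl41 is higher in all heavy libraries than in lysates, and Mrpl12 is lowest in the rpS6 P-/- lysates of DS.

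Whether the genotype altered the ratio of heavy to lysate was tested as an interaction within each region. In Acb, 0 of the 77 genes were called with edgeR (0% of all genes) and 0 with DESeq2, with a median of -0.43 and 61 negative values, and 19 genes were lower (6.16% of all genes) and 0 higher (5.78% of all genes) at an unadjusted p under 0.05. The lowest were Mrpl34, a small protein of the large subunit, at -1.21, Mrpl47 at -1.08, Mrpl42 at -1.07, Mrpl33 at -1.06 and Mrps21 at -1.05 (adjusted p from 0.22 to 0.308, edgeR). With the length trend removed the median was -0.18. In DS 0 were called with edgeR (0% of all genes) and 0 with DESeq2, and the median was 0.00, with 1 gene lower (2.18% of all genes), Mrps33, and 6 higher (2.73% of all genes) at an unadjusted p under 0.05.

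The difference between regions in the genotype effect on heavy libraries was also tested itself. Again 0 of the 77 genes were called with edgeR (0.00592% of all genes). DESeq2 called 3 (Mrpl18, Mrpl20 and Mrpl42), a count given without its share of all genes. At an unadjusted p under 0.05, 13 were lower in Acb (7.49% of all genes). The largest differences were those of Mrpl33 at -1.80 (SE 0.46, adjusted p = 0.0913, edgeR), Mrps21 at -1.66 (adjusted p = 0.0722, edgeR) and Mrpl42 at -1.44 (adjusted p = 0.0705, edgeR). The median was -0.21, and it changed sign to 0.17 with the length trend removed.

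Last, Acb was compared with DS in each fraction, over both genotypes. In lysates 0 of the 77 genes differed (9.71% of all genes were higher in Acb and 9.56% lower, edgeR), DESeq2 called 1 (Mrps14, higher), and 4 were higher (14.7% of all genes; Mrpl23, Mrps14, Mrps16 and Mrps25) and 0 lower at an unadjusted p under 0.05. Their median log2 fold change was 0.06, and -0.06 with the length trend removed. By contrast, 69 of 74 cytosolic ribosomal protein genes were higher in Acb lysates, with a median of 0.45. Values of single genes among the 77 ran from -0.26 to 0.40.

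In the heavy fraction 22 of the 77 genes were lower in Acb than in DS (10.3% of all genes) and 1 was higher (9.44% of all genes), with a median of -0.32. Mrps24 was lowest at -1.26 (SE 0.30, adjusted p = 0.00407, edgeR), with 2.69 to 5.24 CPM in Acb and 3.21 to 16.6 CPM in DS. It was followed by Mrpl33 at -1.07 (SE 0.32, adjusted p = 0.0203, edgeR) and Mrps21 at -0.91 (SE 0.28, adjusted p = 0.0252, edgeR). Mrps36 (-0.86), Mrps18c (-0.69), Mrps12 (-0.67), Mrpl12 (-0.57), Mrps33 (-0.52), Mrps18a (-0.50), Mrps34 (-0.49) and Mrps7 (-0.46) fell as well. The gene that was higher in Acb was Mrps31, with 23.1 to 40.8 CPM there and 17.1 to 22.9 CPM in DS, without overlap (0.48, SE 0.15, adjusted p = 0.0217, edgeR). Cortical neuron and astrocyte markers differed between the regions as given above, in lysates and heavy libraries alike. Choroid plexus markers summed to 28.8 to 74.4 CPM in Acb and 11.1 to 19.9 CPM in DS. Microglia markers in heavy libraries summed to 195 to 260 CPM in Acb and 109 to 181 CPM in DS. Those of medium spiny neurons, oligodendrocytes and endothelial cells overlapped between regions. The part of these differences in the result was not tested.

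Taken by genotype, the regional values differed in size. In the rpS6 P-/- libraries alone 27 of the 77 genes were lower in Acb (10.7% of all genes), with a median of -0.40, and in the wild-type libraries alone 0 were lower (3.43% of all genes), with a median of -0.14. In wild type Mrpl33 stood at -0.15, Mrps21 at -0.06 and Mrps24 at -0.81, none of which was called. Of the 23 calls in both genotypes, 13 were left without wild-type Acb replicate 2, 14 without rpS6 P-/- Acb replicate 1, 14 without rpS6 P-/- Acb replicate 2, 9 without rpS6 P-/- Acb replicate 3, 14 without wild-type DS replicate 1 and 7 without rpS6 P-/- DS replicate 3. The calls of Mrpl33 and Mrps21 were lost without rpS6 P-/- Acb replicate 1 (-1.04 and -0.96) or 2 (-0.96 and -0.75) and without rpS6 P-/- DS replicate 3 (-0.82 and -0.77), and that of Mrps21 also without rpS6 P-/- Acb replicate 3 (-0.68), wild-type DS replicate 3 (-0.93) or rpS6 P-/- DS replicate 1 (-0.85). That of Mrps31 was lost without wild-type Acb replicate 2 (0.46), rpS6 P-/- Acb replicate 3 (0.39) or rpS6 P-/- DS replicate 2 (0.44). With the length trend removed 19 genes were lower (13.9% of all genes) and 1 higher (7.41% of all genes), with a median of -0.20.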

How the data were processed

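The authors deposited raw, unfiltered gene counts, which were the values used, for 24079 genes in 24 stranded poly-A libraries. Per the study's methods and the submitters' processing notes, bases were called with CASAVA 1.8.2, quality was checked with FastQC, reads were aligned to mm10 (GRCm38) with TopHat2 2.0.13 and Bowtie2 2.2.3, and reads in antisense orientation, as TruSeq stranded libraries give them, were counted with HTSeq 0.6.1p1 in union mode. Positions came from RefSeq and lengths from GENCODE annotation, using for each gene the longest transcript with a RefSeq match.

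Genes with at least 15 reads over the libraries of a comparison were kept and tested with edgeR 4.0.16 (TMM, quasi-likelihood F test) in R 4.3.3, adjusted by the Benjamini-Hochberg method over all genes tested with a threshold of 0.05. Lysate and heavy libraries were scaled together, so a fold change between them is relative to all mRNA. Groups came from the labels, and 11 comparisons were fitted over genotype, fraction, region and their interactions. A length trend was removed by loess offsets per library (span 0.5). Alternatives were DESeq2 1.42.0, a minimum of 1 read, the filterByExpr filter, DESeq2's size factors in edgeR, the replicate block, 1 genotype alone and each replicate left out. CPM printed used a TMM scaling of all 24 libraries. Scripts were tested on simulated data. Figures used Python 3.11.15, pandas 2.3.3 and matplotlib 3.10.9.

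Named were genes fixed by role, the genes with the largest changes (5 per direction at an unadjusted p under 0.05 for the genotype comparison in Acb heavy libraries and its interaction with fraction, 3 per direction at an adjusted p under 0.05 elsewhere, with at least 50 reads on average) and the 3 highest and lowest per kb. Other genes named in the text beside a count of 5 or fewer were taken from that count after it was seen. The members and the lists were chosen with earlier results of these data known.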

Additional observations from a re-analysis of the deposited data

How the results depend on the processing

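Of the values of single genes, 415 kept their direction and side of the threshold over the alternatives run, 19 passed it only under an alternative and 24 lost it. Per the study's methods, input RNA was kept from the samples loaded on the gradients, and lysate and heavy libraries carry the same numbers. The sources do not say outright that libraries of the same number share a lysate, nor whether they share animals over regions. The main fits did not pair them. For fraction and for genotype by fraction, the replicate block paired lysate and heavy libraries of the same number. For the other comparisons it matched libraries of the same number over genotypes, regions or both. The sources do not describe these as pairs, so calls of that block there are descriptions only. Residuals of libraries of one number correlated between -0.0376 and 0.0743 over the fractions (0 of 12 pairs above 0.1), between -0.294 and 0.319 over genotypes (2 of 12 pairs above 0.1) and between -0.255 and 0.217 over regions (1 of 12). For genotype in Acb heavy libraries, 0 calls became 21 with DESeq2, 11 with a minimum of 1 read and 4 with the replicate block (Mrpl33, Mrpl42, Mrps21 and Mrps36), and the median became -0.061 with the length trend removed. For genotype in DS lysates, calls were 1 with a minimum of 1 read and 1 (Mrpl12) with the replicate block, and the median reversed to 0.0074 with the trend removed. For fraction in Acb, the median was 0.278 with the trend removed, 0.640 in wild type and 0.299 in rpS6 P-/-, where calls were 23. For fraction in DS, the trend removed gave 43 calls and a median of 0.359, and rpS6 P-/- alone a median of 0.764. For region in lysates, calls were 1 with DESeq2 (Mrps14), 1 with a minimum of 1 read, 1 with the trend removed (Mrps18c) and 2 in rpS6 P-/- alone (Mrpl12 and Mrps16), and the median reversed to -0.061 with the trend removed. For region in heavy libraries, the median was -0.201 with the trend removed and -0.141 in wild type, which had 0 calls. For genotype by fraction in Acb, calls were 3 with a minimum of 1 read and 3 with the replicate block (Mrps21 at -1.08, Mrpl42 at -1.08 and Mrpl20 at -0.99, adjusted p of 0.0156, 0.0161 and 0.0279, edgeR), and the median was -0.178 with the trend removed. For genotype by region, calls were 3 with DESeq2 (Mrpl18, Mrpl20 and Mrpl42), 6 with a minimum of 1 read and 4 with the replicate block (Mrpl18, Mrpl33, Mrpl42 and Mrps21), and the median reversed to 0.168 with the trend removed. Leaving out 1 replicate at a time gave 7 to 34 calls for region in heavy libraries, 0 to 2 in lysates, 0 to 1 for genotype in DS heavy libraries, 0 to 1 in DS lysates (medians -0.136 to -0.0038), medians of -0.0945 to 0.0499 for genotype in Acb lysates, 0 to 1 calls for genotype by fraction in Acb and 0 to 4 for genotype by region. The cause of these shifts was not tested. With 3 pools a group and a wide spread among rpS6 P-/- heavy libraries, absence of calls does not show equal levels.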
